A study of Homo sapiens with 24 samples.

Results

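Centromere protein (CENP) genes encode the proteins that build the kinetochore on the centromere, and 10 of them were followed here: CENPA, CENPE, CENPF, CENPH, CENPI, CENPK, CENPM, CENPN, CENPU and CENPW. They were taken from the 22692 genes that probes on the arrays named through a RefSeq accession, and 15 probes measured them at 24 h and 13 at 48 h. LNCaP cells, an established line of human prostate cancer, were electroporated with siRNA to lower the long noncoding RNA TAPIR-1 (si-A1) or TAPIR-2 (si-A2), or with a negative control siRNA (scramble), and total RNA was labelled with Cy3 for one-colour Agilent arrays. Each siRNA was measured in 4 samples at 24 h and in 4 at 48 h, so all groups shared the cell line and the electroporation and differed in siRNA and time. The 48 h si-A2 replicate 2 was left out because its array was dim, which left 3 si-A2 arrays and 11 arrays in all at 48 h. A different array version was used at each time, and on every slide each siRNA kept the same column, so that array position and siRNA cannot be told apart. The study's methods describe the 4 samples of a group as biological replicates.

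CENP-A is the histone H3 variant that marks a chromosome's centromere. On CENP-A nucleosomes sits the constitutive centromere-associated network, whose subunits include CENP-H, CENP-I and CENP-K, CENP-M, CENP-N, CENP-U and CENP-W, and which carries the microtubule-binding outer kinetochore in mitosis. CENP-E, a plus-end directed kinesin, and CENP-F, a large coiled-coil protein, join the outer kinetochore and its corona as mitosis begins. Many of these genes are transcribed in proliferating cells, with a peak in late S, G2 or M phase.

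Promoter windows from RefSeq (build GRCh38.p14) were analysed for 8 of the 10 genes, all but CENPH and CENPM. A window runs from 250 bases before the start of transcription to 50 after it. Motifs that cell cycle promoters often carry were searched in them on both strands, namely the CHR element TTTGAA, the CCAAT box CCAAT, and the E2F words TTTCCCGC, TTTGGCGC, TTTCGCGC and TTTGCCGC. The 250 bases before the start are shown for the gene whose window holds all 3 kinds of motif (CENPA), for 3 genes that fell at 24 h with both siRNAs (CENPF, CENPU and CENPE), and for CENPW, whose level at 24 h was close to that of scramble. Capitals mark the motif words, and each sequence reads in the direction of transcription.
CENPA, plus strand, chr2:26785806-26786055: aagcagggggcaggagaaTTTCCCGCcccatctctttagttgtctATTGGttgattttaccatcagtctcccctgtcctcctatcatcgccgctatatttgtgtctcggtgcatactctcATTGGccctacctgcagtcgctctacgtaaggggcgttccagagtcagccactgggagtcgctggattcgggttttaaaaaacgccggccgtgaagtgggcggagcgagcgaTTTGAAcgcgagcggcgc
CENPF, plus strand, chr1:214602945-214603194: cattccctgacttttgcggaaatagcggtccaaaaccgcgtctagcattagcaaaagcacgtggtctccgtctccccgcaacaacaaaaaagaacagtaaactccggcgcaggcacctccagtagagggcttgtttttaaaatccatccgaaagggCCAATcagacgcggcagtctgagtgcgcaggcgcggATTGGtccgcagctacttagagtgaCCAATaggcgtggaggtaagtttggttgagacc
CENPU, minus strand, chr4:184734097-184734346: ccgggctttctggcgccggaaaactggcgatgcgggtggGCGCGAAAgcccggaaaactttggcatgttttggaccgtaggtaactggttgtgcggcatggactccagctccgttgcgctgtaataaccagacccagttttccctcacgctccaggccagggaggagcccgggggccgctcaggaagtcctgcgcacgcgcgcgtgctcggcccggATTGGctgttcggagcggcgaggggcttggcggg
CENPE, minus strand, chr4:103198344-103198593: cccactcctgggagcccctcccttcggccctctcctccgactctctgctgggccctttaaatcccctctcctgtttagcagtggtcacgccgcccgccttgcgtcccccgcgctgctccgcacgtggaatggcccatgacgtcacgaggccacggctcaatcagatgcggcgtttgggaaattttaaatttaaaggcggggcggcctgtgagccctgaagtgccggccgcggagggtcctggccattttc
CENPW, plus strand, chr6:126339865-126340114: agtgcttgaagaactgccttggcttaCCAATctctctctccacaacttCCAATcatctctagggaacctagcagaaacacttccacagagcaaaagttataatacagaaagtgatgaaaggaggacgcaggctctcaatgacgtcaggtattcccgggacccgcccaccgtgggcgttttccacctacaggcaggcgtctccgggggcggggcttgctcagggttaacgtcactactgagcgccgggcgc

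The CHR word lay in 3 of the 8 windows (CENPA, CENPF and CENPN) and in 15.2% of the 35116 RefSeq windows of this length. In CENPA it spanned bases -18 to -13 from the start, whereas in CENPF (41 to 46) and CENPN (4 to 9) it lay after the start and is not among the letters shown. The CCAAT box lay in 6 windows (CENPA, CENPF, CENPK, CENPN, CENPU and CENPW) against 34.6% of all windows. CENPF held 4 copies of it, of which 3 are upstream of the start, and CENPK held 3. An E2F word lay in 2 windows, TTTCCCGC in CENPA and TTTCGCGC on the opposite strand in CENPU, against 3.31% of all windows. The windows of CENPE and CENPI held none of the 3 motifs, and the window of CENPI begins inside the annotated gene. These are matches of letters, and whether a factor binds there was not measured.

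The transcript targeted by si-A2 was checked first. No probe of TAPIR-1 was matched by accession. A probe of TAPIR-2, whose signal cleared background on all arrays of 24 h but 2 of si-A2, read 5.08, 4.98, 5.28 and 4.81 (log2 intensity) in the scramble arrays of 24 h, 4.95, 4.75, 4.68 and 4.19 after si-A1 and 4.70, 3.12, 4.61 and 3.82 after si-A2. All si-A2 arrays were below all scramble arrays (difference -0.98, exact two-sided permutation test, p = 0.0286, the smallest this design allows, n = 4 and 4), whereas the limma fit over all probes gave an adjusted p of 0.239 and the exact p was 0.0857 to 0.114 without any 1 scramble array. The si-A1 arrays overlapped with scramble (difference -0.40, exact permutation p = 0.0571). At 48 h the same probe read 4.70, 5.41, 4.02 and 4.44 in scramble, 5.46, 5.55, 4.36 and 3.93 after si-A1 and 5.62, 3.83 and 4.60 after si-A2. No lower level of TAPIR-2 was measurable at 48 h with this probe (differences 0.18 and 0.04, exact permutation p = 0.8 and 0.943). A second TAPIR-2 probe at 48 h was well above background on no array (differences -0.78 and -0.53, exact permutation p = 0.171 and 0.457).

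The probes tested, whose signal passed the negative controls' mean by 3 SDs on 3 arrays or more, numbered 46664 at 24 h and 51168 at 48 h. The median processed intensity of an array was 24.4 to 57.2 at 24 h and 20.4 to 32.2 at 48 h, and 13.9 on the array left out. All 5 LNCaP markers reported (KLK3, KLK2, TMPRSS2, FOLH1 and HOXB13) were well above background, as the scanner software rates each spot, on every array used. Of 6 markers of fibroblasts, leukocytes, endothelium and basal epithelium, KRT5 and COL1A2 were on no array well above background, COL1A1 was so on 3 of 12 arrays at 24 h and on none at 48 h, and PTPRC, PECAM1 and KRT14 were above it on most or all arrays. The summed intensity of the 5 tested was 182 to 231 in scramble, 206 to 293 after si-A1 and 230 to 239 after si-A2 at 24 h, and 104 to 314, 134 to 236 and 132 to 230 at 48 h. Their part in the results was not tested. In RNA from whole cultures, fewer cells that express a gene and less RNA of it per cell cannot be told apart.

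At 24 h, CENPI, CENPM, CENPU, CENPE and CENPF fell with both siRNAs, CENPU the most (log2 difference from scramble -2.64 with si-A1 and -3.06 with si-A2). CENPA, CENPH, CENPK, CENPN and CENPW passed the test with neither siRNA. A gene was called at a limma adjusted p below 0.01 (Benjamini-Hochberg, over all probes tested) and an absolute log2 difference of at least 0.5, with the brightest probe standing for the gene. With si-A1, 5 of 10 genes were called lower and 0 higher, against 0.958% of all probes called lower, and with si-A2 again 5 of 10 were lower and 0 higher, against 0.797%. The si-A1 count was 2 (CENPU and CENPI) with only si-A1 and scramble in the fit, and 3 (CENPU, CENPF and CENPI) among probes with an interquartile range of 0.5 or more. Every si-A1 array was below every scramble array for 9 genes, where 5.25% of all probes did so, and every si-A2 array for 7 genes, where 4.32% did. The median log2 difference over the 10 genes was -1.22 with si-A1 and -1.40 with si-A2, beside 0.04 and 0.04 over all probes. Both siRNAs were compared with the same scramble arrays. Within slide 1 and slide 2 the medians were -1.11 and -1.43 for si-A1 and -1.25 and -1.38 for si-A2, and 0 genes were called within a slide.

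**Figure D1:**
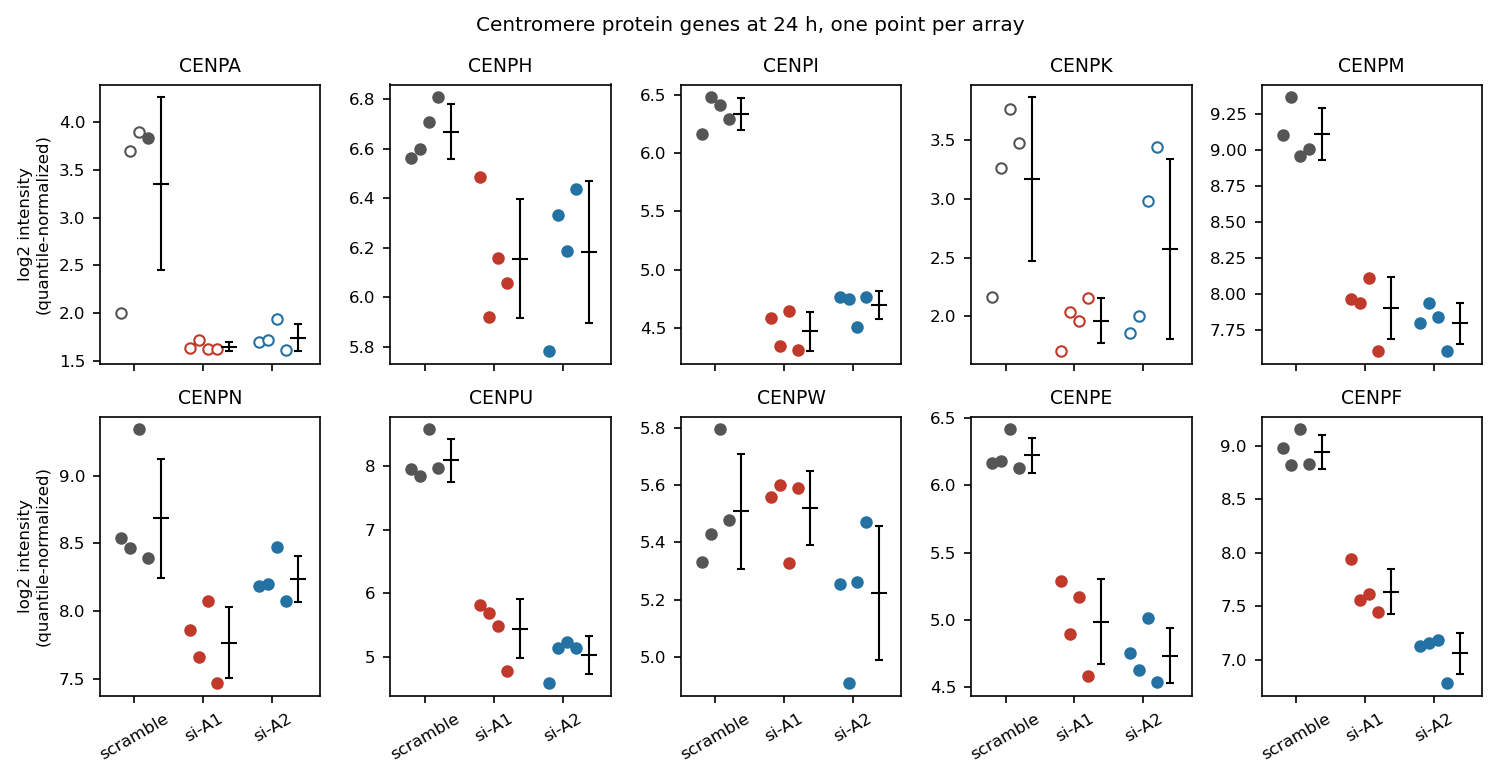
Log2 intensity (quantile-normalized) of the brightest probe of each of the 10 genes at 24 h, 1 point per array in replicate order, with the mean and SD of each group beside it. Hollow points were not well above background. The si-A1 and si-A2 points of CENPI, CENPM, CENPU, CENPE and CENPF lie below all scramble points, whereas those of CENPW overlap with them.

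The level of CENPA (chromosome 2, 26786056 to 26794589) was near the detection limit at 24 h. Its probe read 2.01, 3.69, 3.89 and 3.83 in scramble, 1.64, 1.72, 1.62 and 1.62 after si-A1 and 1.70, 1.72, 1.95 and 1.61 after si-A2. The last scramble array (3.83) was the only one of the 12 on which it was well above background, and the first one (2.01) lay close to the siRNA arrays. The fitted differences of CENPA were -1.70 (SE 0.33, limma adjusted p = 0.0249) and -1.61 (SE 0.33, limma adjusted p = 0.039), and no fold can be given since the siRNA groups have only a bound. Without scramble replicate 1 the gene was called with both siRNAs, which makes 6 genes called with si-A2.

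CENP-I works in a subcomplex with CENP-H, CENP-K and CENP-M, of which CENPI and CENPM were called at 24 h. CENPI (chromosome X, 101098204 to 101181859) read 6.16, 6.48, 6.41 and 6.29 in scramble, 4.58, 4.34, 4.65 and 4.31 after si-A1 and 4.77, 4.75, 4.51 and 4.76 after si-A2. The siRNA arrays formed a narrow band more than a log2 unit below scramble (differences -1.86, SE 0.14, limma adjusted p = 7.25e-05 with si-A1, and -1.64, SE 0.14, limma adjusted p = 0.000116 with si-A2). A second, dimmer CENPI probe gave -2.67 and -2.41, and after si-A2 no array rated it well above background, so that its level there was at least 3.48-fold lower (limma adjusted p = 0.00122).

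CENPM (chromosome 22, 41927196 to 41947152) read 9.11, 9.37, 8.96 and 9.01 in scramble, 7.97, 7.94, 8.11 and 7.61 after si-A1 and 7.80, 7.94, 7.84 and 7.61 after si-A2. Neither siRNA group overlapped with scramble, and the differences were -1.20 (SE 0.14, limma adjusted p = 0.00108) and -1.31 (SE 0.14, limma adjusted p = 0.000646). The second CENPM probe was called as well, at -1.90 and -2.06.

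CENPH (chromosome 5, 69189583 to 69210357) read 6.56, 6.60, 6.71 and 6.81 in scramble, 6.49, 5.92, 6.16 and 6.06 after si-A1 and 5.78, 6.33, 6.19 and 6.44 after si-A2. Each siRNA array was below each scramble array by a small margin, and the differences of -0.51 and -0.49 were not called (limma adjusted p = 0.222 and 0.276). CENPK (chromosome 5, 65495624 to 65563168) reached a rating of well above background on 0 of the 12 arrays of 24 h, with readings of 2.17 to 3.77 in scramble, 1.70 to 2.16 after si-A1 and 1.86 to 3.44 after si-A2, so no fold is given.

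CENP-U belongs to a subcomplex that recruits Polo-like kinase 1 to the kinetochore. CENPU (chromosome 4, 184694085 to 184734096) read 7.96, 7.84, 8.57 and 7.97 in scramble, 5.82, 5.69, 5.49 and 4.78 after si-A1 and 4.59, 5.15, 5.23 and 5.14 after si-A2. The gap between the lowest scramble and the highest siRNA array was about 2 log2 units, and the differences were -2.64 (SE 0.26, limma adjusted p = 0.000351) and -3.06 (SE 0.26, limma adjusted p = 0.000123).

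CENP-N reads the CENP-A nucleosome directly. CENPN (chromosome 16, 81007214 to 81033107) read 8.54, 8.46, 9.34 and 8.39 in scramble, 7.86, 7.66, 8.07 and 7.46 after si-A1 and 8.19, 8.20, 8.47 and 8.08 after si-A2. The si-A1 arrays were below scramble and the si-A2 arrays overlapped with it, and the differences of -0.92 and -0.45 were not called (limma adjusted p = 0.0667 and 0.481). The other CENPN probes gave -0.22 and -0.76 with si-A1 and -0.69 and -0.54 with si-A2, all uncalled.

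CENP-W, a histone-fold protein that pairs with CENP-T, was the gene nearest to scramble. CENPW (chromosome 6, 126340115 to 126483320) read 5.33, 5.43, 5.79 and 5.48 in scramble, 5.56, 5.60, 5.33 and 5.59 after si-A1 and 5.26, 4.91, 5.26 and 5.47 after si-A2. The groups overlapped. The difference with si-A1 was 0.01 (95% confidence interval -0.33 to 0.35) and that with si-A2 was -0.28 (-0.62 to 0.05), so falls of the size of CENPU or CENPI lie outside both intervals.

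CENPE (chromosome 4, 103105811 to 103198343), the mitotic kinesin, read 6.16, 6.18, 6.42 and 6.13 in scramble, 5.29, 4.90, 5.17 and 4.58 after si-A1 and 4.75, 4.62, 5.02 and 4.54 after si-A2. No siRNA array reached the scramble level, and the differences were -1.24 (SE 0.18, limma adjusted p = 0.00438) and -1.49 (SE 0.18, limma adjusted p = 0.00132). The si-A1 call of CENPE was lost in 7 of the 12 fits that left out an array (any scramble array, or si-A1 replicate 2, 3 or 4).

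CENPF (chromosome 1, 214603195 to 214664571), a protein of the nuclear matrix that moves to the kinetochore, read 8.98, 8.81, 9.15 and 8.83 in scramble, 7.94, 7.55, 7.61 and 7.44 after si-A1 and 7.13, 7.16, 7.18 and 6.78 after si-A2. The 3 groups did not overlap, with si-A2 lowest (differences from scramble -1.31, SE 0.15, limma adjusted p = 0.00108, and -1.88, SE 0.15, limma adjusted p = 0.000105). The second CENPF probe gave -1.39 and -1.49 and was not called (limma adjusted p = 0.0262 and 0.0211). On this probe the si-A1 and si-A2 arrays overlapped with each other.

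Between the siRNAs at 24 h, 0 of the 10 genes were called in either direction, where 0.309% of all probes were. An unadjusted limma p below 0.05 was found for 1 gene, beside 5164 of the 46664 probes tested. That gene was CENPF, lower after si-A2 by -0.58 (95% confidence interval -0.92 to -0.24, limma adjusted p = 0.125). The median difference between si-A2 and si-A1 was -0.04, and over the 8 genes other than CENPA and CENPK, which were at background in both groups, it was -0.18 with 5 genes lower after si-A2. The widest interval of a gene measured well above background in both groups was that of CENPU, -0.99 to 0.16.

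At 48 h, all 9 genes with a RefSeq-named probe fell with si-A1, by a median of -2.97 on the log2 scale, with CENPU at -3.84 and CENPF at -3.55, while CENPA and CENPK, which were at background after si-A1, have only a bound. With si-A2, CENPA and CENPF were called lower, and the other 7 genes were not called, with differences of -0.96 to -1.97 (CENPK, at -1.69, was at background after si-A2). CENPM has no RefSeq accession on the 48 h version, but the same probes are spotted there and were followed under their 24 h name. With si-A1, 9 of 9 genes were called lower and 0 higher, against 3.17% of all probes called lower, and all 9 did not overlap with scramble, against 8.01%. With the dim si-A2 array in the fit the si-A1 count was 2 (CENPI and CENPA). With si-A2, 2 of 9 were called lower and 0 higher, against 0.199% of all probes, while all 9 did not overlap with scramble, against 6.65%. The median with si-A2 was -1.69, beside 0.00 over all probes. Over the 7 genes well above background on at least 1 array of each group, without CENPA and CENPK, the medians were -2.97 and -1.56. Both siRNAs again share the scramble arrays.

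The count of called genes with si-A2 at 48 h depended on the fit. With the replicate number as a block, 0 of 9 genes were called with si-A2 (CENPA limma adjusted p = 0.0223, CENPF 0.0219). With si-A1 the block gave 8 of 9, where CENPK was lost (limma adjusted p = 0.0135). Equal numbers always shared a slide, so the numbers are not shown to pair samples beyond the slide. Leaving out any 1 of the 11 arrays also gave 0 calls with si-A2 (CENPF could not be fitted without si-A2 replicate 3 or 4), whereas normexp background correction gave 7 and no background correction 8. The share of all probes called in these fits is not given here, so these counts cannot be set against it. The unadjusted limma p with si-A2 was below 0.05 for 9 of 9 genes, beside 8168 of the 51168 probes tested. Within slide 1, si-A2 has 1 array and CENPF could not be fitted. The medians there, over 8 genes, were -3.07 for si-A1 and -1.32 for si-A2. Within slide 2, over 9 genes, they were -2.87 and -1.81, and 0 genes were called.

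**Figure D2:**
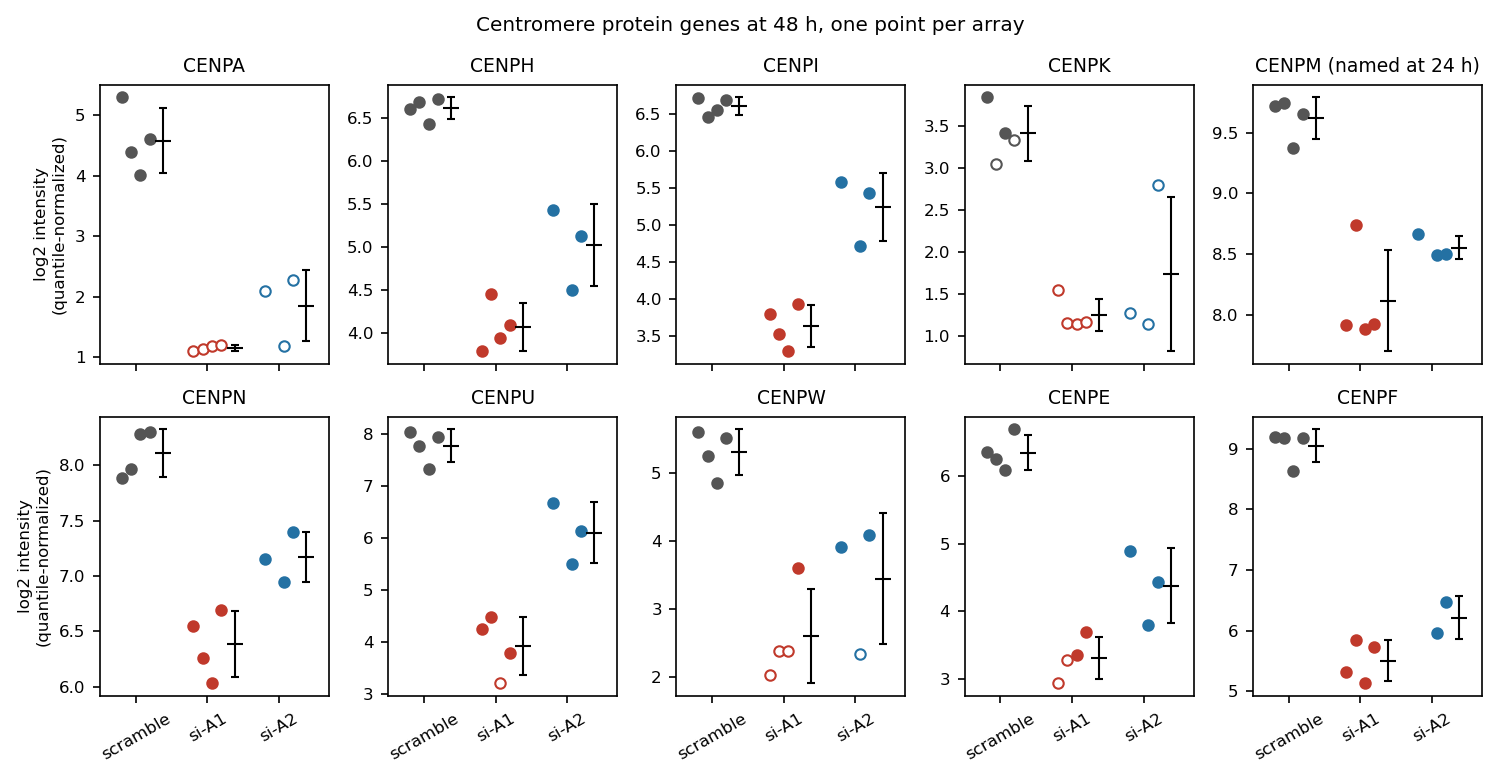
Log2 intensity (quantile-normalized) of the brightest probe of each gene at 48 h, 1 point per array, with the mean and SD of each group beside it. Hollow points were not well above background, CENPM is shown under the name its probe had at 24 h, and 1 si-A2 spot of CENPF was an outlier and is missing. The si-A1 points are below all scramble points in each panel, and the si-A2 points of CENPI and CENPU lie between those of scramble and si-A1.

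CENPA was detected on all scramble arrays at 48 h and on no siRNA array. It read 5.30, 4.40, 4.02 and 4.62 in scramble, 1.10, 1.13, 1.18 and 1.21 after si-A1 and 2.10, 1.18 and 2.28 after si-A2 (replicates 1, 3 and 4). The siRNA readings were not well above background, which puts the level at least 2.59-fold lower with si-A1 (limma adjusted p = 0.000179 for the fitted difference). With si-A2 it was at least 2.24-fold lower (limma adjusted p = 0.00799).

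CENPH, which was not called at 24 h, read 6.61, 6.69, 6.44 and 6.73 in scramble, 3.79, 4.45, 3.94 and 4.10 after si-A1 and 5.44, 4.50 and 5.13 after si-A2. The si-A1 arrays were all below the si-A2 arrays and these below scramble, with differences from scramble of -2.55 (SE 0.20, limma adjusted p = 0.00013) and -1.56 (SE 0.22, limma adjusted p = 0.0132, not called). CENPI read 6.72, 6.46, 6.55 and 6.69 in scramble, 3.80, 3.53, 3.30 and 3.94 after si-A1 and 5.59, 4.72 and 5.43 after si-A2. The 3 groups were again separate (-2.97, SE 0.21, limma adjusted p = 8.91e-05 with si-A1, and -1.34, SE 0.23, limma adjusted p = 0.0248 with si-A2). The second CENPI probe was at background after si-A1 (at least 7-fold lower, limma adjusted p = 0.000525). With si-A2 it gave -1.24 and was not called (limma adjusted p = 0.165).

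CENPK was well above background on 2 of 4 scramble arrays and on no siRNA array. Its readings were 3.05 to 3.84 in scramble and 1.15 to 1.54 after si-A1, which makes the level at least 1.15-fold lower (limma adjusted p = 0.00557), a call that was lost in 8 of 11 fits without 1 array. The brighter CENPM probe read 9.72, 9.74, 9.37 and 9.65 in scramble, 7.92, 8.74, 7.89 and 7.92 after si-A1 and 8.66, 8.49 and 8.50 after si-A2. The siRNA groups of CENPM overlapped with each other and not with scramble, and the differences were -1.50 (SE 0.17, limma adjusted p = 0.000803) and -1.02 (SE 0.18, limma adjusted p = 0.0295, not called). Its second probe was called with both siRNAs, at -2.48 and -1.56.

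CENPN read 7.88, 7.96, 8.29 and 8.30 in scramble, 6.55, 6.26, 6.03 and 6.69 after si-A1 and 7.16, 6.95 and 7.40 after si-A2. The groups did not overlap (-1.72, SE 0.18, limma adjusted p = 0.000489, and -0.96, SE 0.19, limma adjusted p = 0.0431, not called). The dimmer CENPN probes gave -1.11 and -0.64 with si-A1 (limma adjusted p = 0.0437 and 0.35) and -1.37 and -0.44 with si-A2 (limma adjusted p = 0.0778 and 0.667), so the call of CENPN with si-A1 rests on the brightest of its 3 probes.

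CENPU read 8.04, 7.77, 7.32 and 7.95 in scramble, 4.25, 4.48, 3.21 and 3.79 after si-A1 and 6.67, 5.50 and 6.14 after si-A2. After si-A1, CENPU was well above background on 3 of 4 arrays and lay below every si-A2 array, and after si-A2 it lay below every scramble array. The differences were -3.84 (SE 0.23, limma adjusted p = 7.28e-05) and -1.56 (SE 0.25, limma adjusted p = 0.0219, not called).

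CENPW, level with scramble at 24 h, read 5.60, 5.25, 4.85 and 5.51 in scramble at 48 h, 2.03, 2.38, 2.38 and 3.61 after si-A1 and 3.91, 2.34 and 4.09 after si-A2. All siRNA readings of CENPW were below scramble and overlapped with each other, and the probe was well above background on 1 of 4 si-A1 and 2 of 3 si-A2 arrays. The differences were -2.71 (SE 0.46, limma adjusted p = 0.00655) and -1.86 (SE 0.50, limma adjusted p = 0.111, not called). The si-A1 call was lost in 7 of 11 fits without 1 array.

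CENPE read 6.35, 6.25, 6.08 and 6.69 in scramble, 2.93, 3.27, 3.34 and 3.69 after si-A1 and 4.89, 3.79 and 4.43 after si-A2. The groups were separate, and si-A1 was well above background on 2 of 4 arrays (-3.04, SE 0.26, limma adjusted p = 0.000188, and -1.97, SE 0.28, limma adjusted p = 0.0148, not called). CENPF read 9.20, 9.17, 8.64 and 9.18 in scramble, 5.31, 5.84, 5.13 and 5.73 after si-A1 and 5.96 and 6.47 in si-A2 replicates 3 and 4, the spot of replicate 1 being an outlier that the fit leaves out. Both CENPF differences were called (-3.55, SE 0.21, limma adjusted p = 8.91e-05, and -2.73, SE 0.28, limma adjusted p = 0.00686). The second CENPF probe gave -3.49 with si-A1 (limma adjusted p = 0.000404) and -2.55 with si-A2 (limma adjusted p = 0.0162).

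**Figure D3:**
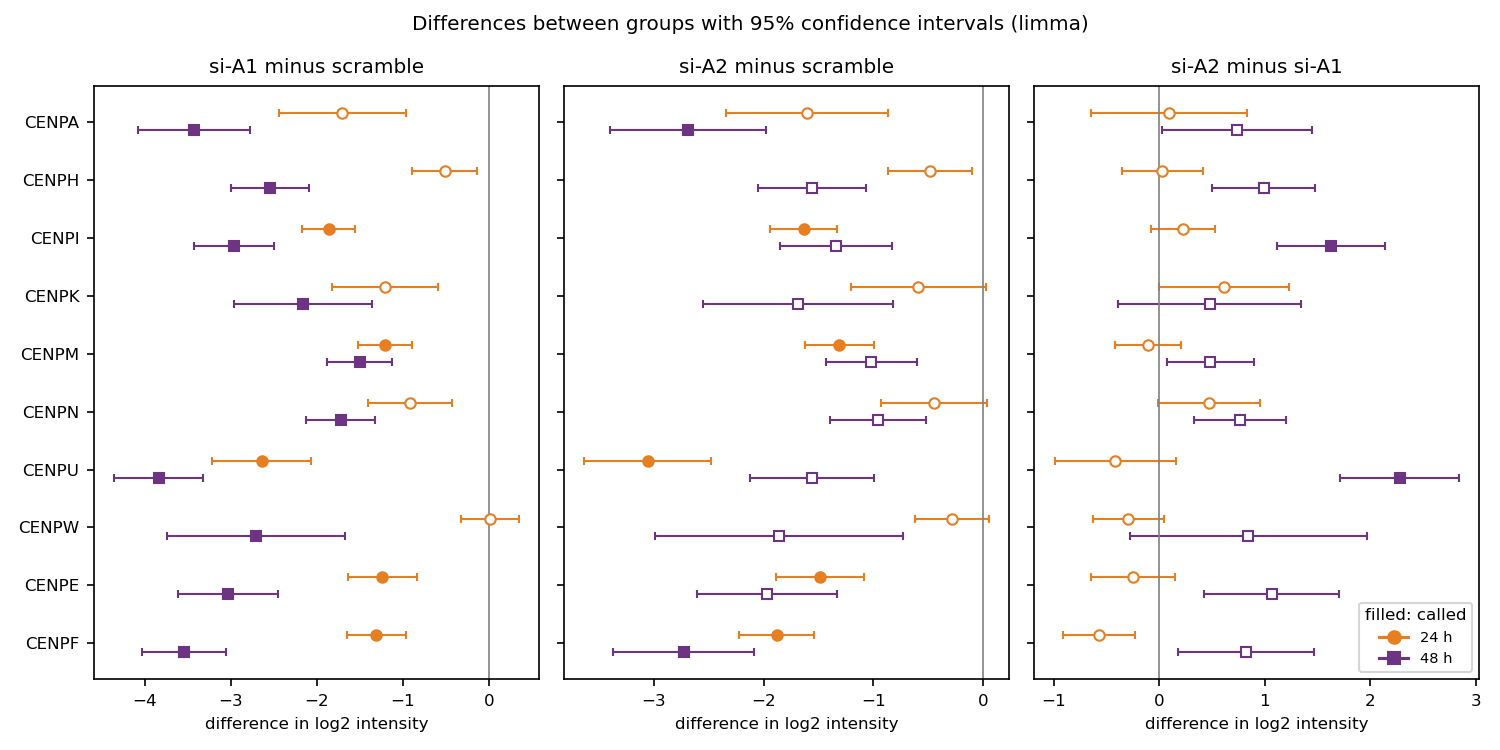
Difference in log2 intensity between groups for each gene at 24 h (circles) and 48 h (squares), with 95% confidence intervals from limma, for si-A1 minus scramble, si-A2 minus scramble and si-A2 minus si-A1. Filled symbols were called, and CENPM at 48 h is shown under its 24 h name. At 48 h every si-A1 interval lies below 0, and the si-A2 minus si-A1 differences of CENPI (1.63) and CENPU (2.28) are the filled ones.

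The question whether both siRNAs lowered the genes to the same extent at 48 h was tested directly. CENPI stood higher with si-A2 than with si-A1 by 1.63 (95% confidence interval 1.12 to 2.14, limma adjusted p = 0.00691) and CENPU by 2.28 (1.72 to 2.84, limma adjusted p = 0.00312). The second CENPI probe, at background after si-A1, was at least 2.96-fold higher after si-A2 and was not called (limma adjusted p = 0.0193). The call of CENPI thus rests on the brighter of its 2 probes. The 2 genes called higher, and 0 called lower, of 9 stand against 0.694% of all probes called higher. The median difference was 0.84 beside -0.03 over all probes. CENPA and CENPK were at background with both siRNAs, and over the other 7 genes all differences were positive, with a median of 0.99. Both calls held with the replicate block, whereas the CENPI call was lost in 10 and the CENPU call in 5 of the 11 fits without 1 array (for CENPU, without si-A1 replicate 1, 3 or 4 or si-A2 replicate 1 or 4). The remaining genes were not called, and among those CENPE had a difference of 1.07 (95% confidence interval 0.43 to 1.71, limma adjusted p = 0.079). Within slide 1, with 1 si-A2 array and without CENPF, the median over 8 genes was 1.51, and 1 gene was negative (CENPK, -0.07). Within slide 2, over 9 genes, the median was 0.80. Both medians include CENPA and CENPK.

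The change of each difference between the times was tested by an interaction term, fitted over 39851 probes found on both array versions and above background at both times. With si-A1, the difference from scramble became more negative from 24 h to 48 h in 10 of 10 genes (CENPA and CENPK read at background after si-A1 at both times), by a median of -1.34 beside -0.01 over all probes. CENPF changed by -2.25 (SE 0.26, 95% confidence interval -2.79 to -1.71, limma adjusted p = 0.00118) and CENPH by -1.94 (SE 0.25, -2.48 to -1.41, limma adjusted p = 0.00289), the 2 genes called, against 0.123% of all probes called in either direction. Dimmer probes of CENPF (-1.89, limma adjusted p = 0.0515), CENPM (-0.61), CENPI (-0.11) and CENPN (0.33) were not called. CENPW changed by -2.40 (SE 0.42, -3.29 to -1.51) and missed the threshold (limma adjusted p = 0.0153). At the other end stood CENPM, at -0.26 (-0.70 to 0.19). Without si-A1 replicate 3 or scramble replicate 4 of 48 h the count was 1 (CENPF), without si-A2 replicate 4 of 48 h it was 1 (CENPH, since CENPF could not be fitted with its missing spot), and without si-A1 replicate 4 of 48 h it was 3, with CENPW added.

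With si-A2, 0 of 10 genes were called, against 0.0226% of all probes, and 7 of 10 changes were negative with a median of -0.64. Among the negative ones, CENPA (-0.78) and CENPK (-0.92) read at background after si-A2 at both times. CENPW (-1.38, limma adjusted p = 0.441) and CENPH (-1.05, limma adjusted p = 0.248) had the most negative changes. CENPU had the opposite sign, 1.47 (95% confidence interval 0.68 to 2.27), from -3.05 at 24 h to -1.57 at 48 h, and was not called (limma adjusted p = 0.253). CENPI (0.35, -0.16 to 0.87) and CENPM (0.33, -0.13 to 0.80) were positive as well and were not called. The second CENPI probe, at background after si-A2 at 24 h, changed by 1.52 (limma adjusted p = 0.456). Both siRNAs were compared with the same scramble arrays at each time, and time and array version are the same split.

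**Figure D4:**
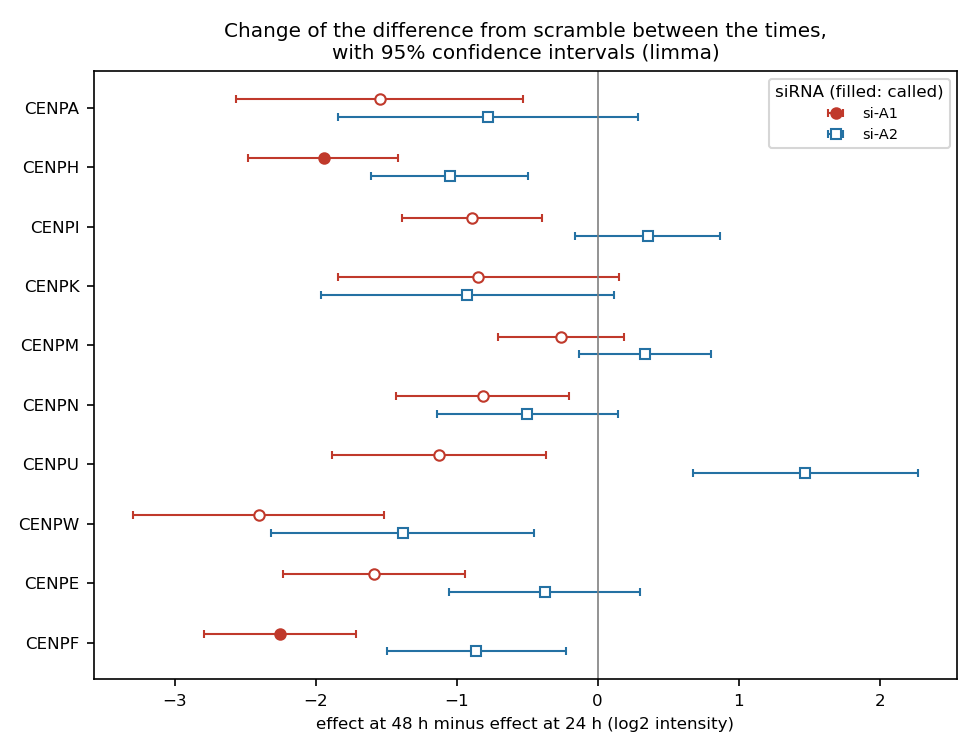
Change of the difference from scramble between 24 h and 48 h for each gene, in log2 units with 95% confidence intervals from limma, for si-A1 (circles) and si-A2 (squares). Filled symbols were called. All si-A1 values are below 0, with CENPF (-2.25) and CENPH (-1.94) called, and CENPU is at 1.47 with si-A2.

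Other kinetochore genes gave the surroundings of these changes, from lists chosen with earlier results of these data known. Of 9 further inner kinetochore subunits, 2 were called lower with si-A1 at 24 h, CENPO (-1.34) and CENPQ (-1.57), which form 1 subcomplex with CENP-U. With si-A2 3 were called lower, CENPO (-1.21), CENPQ (-1.25) and CENPL (-1.59), the partner of CENP-N. The list's median was -0.42 and -0.25, nearer to 0 than that of the 10 genes. At 48 h, 6 of these 9 fell with si-A1, namely CENPQ (-2.40), CENPL (-2.12), CENPO (-2.10), CENPX (-1.25), ITGB3BP (-1.15, which encodes CENP-R) and CENPC (-0.59), with a median of -1.15, and 0 were called with si-A2 (median -0.41). Of the genes that load CENP-A onto chromatin, 0 of 4 were called at 24 h, with medians of -1.79 and -1.78, and with si-A1 at 48 h HJURP, the CENP-A chaperone, was at least 2.4-fold lower (limma adjusted p = 0.00776), OIP5 fell by 3.02 and MIS18A by 0.97, while 0 were called with si-A2.

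In the KNL1 and MIS12 complexes, which bridge to the microtubule binders, 3 of 6 genes were called lower with each siRNA at 24 h and with si-A1 at 48 h, and these were ZWINT (-1.94, -2.20 and -3.59), DSN1 (-2.39, -1.70 and -2.40) and KNL1, which was not well above background on the siRNA arrays (at least 2.84-fold, 2.37-fold and 7.75-fold lower, limma adjusted p = 0.0039, 0.00425 and 0.000361). With si-A2 at 48 h 0 of the 6 were called (median -0.61). Of 9 corona and checkpoint partners, 3 were called lower with si-A1 at 24 h, BUB1B (-1.94), KNTC1 (-1.79) and ZWILCH (-1.24), and these with BUB1 (-1.87) made 4 with si-A2, where they stood at -2.26, -1.73 and -1.19. With si-A1 at 48 h 6 were called lower, BUB1B (-2.84), ZWILCH (-2.20), BUB1 (-2.06), KNTC1 (-2.02), BUB3 (-1.16) and NDE1 (-0.78), the last an adaptor of dynein that binds CENP-F, and 0 with si-A2. The brightest SPDL1 probe was not called with si-A1 at 24 h (-0.55, limma adjusted p = 0.171). A dimmer SPDL1 probe was called there (-1.215, limma adjusted p = 0.000233).

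Of 4 other centromere or formerly CENP-named genes, INCENP of the chromosomal passenger complex and CPAP (once CENPJ, a centriole protein) were called lower with both siRNAs at 24 h (INCENP -1.28 with si-A1, where 1 of 4 arrays was well above background, and at least 1.37-fold lower with si-A2, limma adjusted p = 0.00175, CPAP -1.13 and -1.25). CENPB, which binds a motif of alpha satellite DNA, fell with si-A2 at 24 h (-1.37) and at 48 h (-1.17) and was lower with si-A2 than with si-A1 at both times (-1.27, limma adjusted p = 0.00162, and -0.96, limma adjusted p = 0.00548), the reverse of the order that CENPI and CENPU had at 48 h. At 48 h INCENP was at least 3.58-fold lower with si-A1 (limma adjusted p = 7.28e-05) and 3.09-fold with si-A2 (limma adjusted p = 0.00476), and CPAP fell with si-A1 (-1.10). Between the siRNAs at 48 h, CENPQ (1.65), CENPL (1.23), ZWINT (1.80) and DSN1 (1.60) were higher after si-A2.

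**Figure D5:**
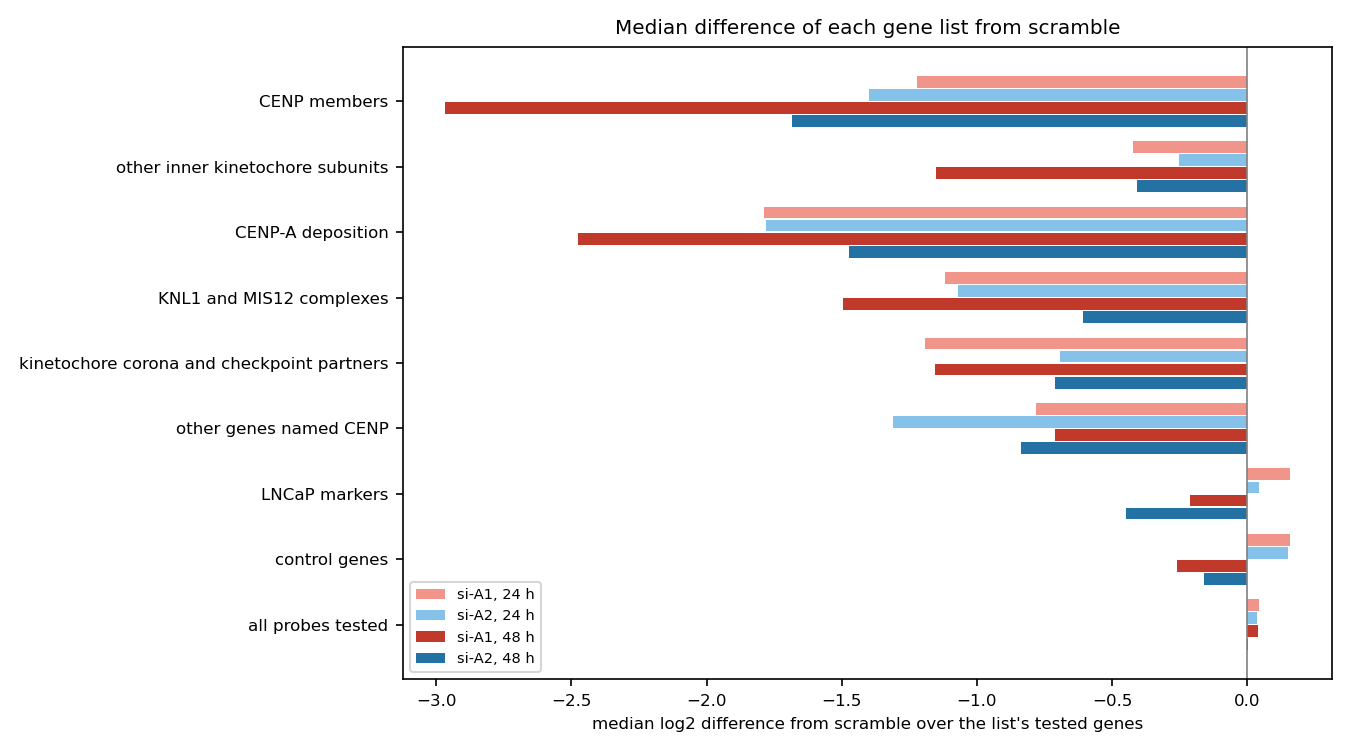
Median log2 difference from scramble over the tested genes of each list, for each siRNA and time, with all probes tested at the bottom. The bars of the CENP genes reach from -1.22 to -2.97, and those of all probes lie between 0.00 and 0.04.

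The 6 control genes (ACTB, GAPDH, TBP, HPRT1, PPIA and B2M) had medians of 0.16 and 0.15 at 24 h and -0.26 and -0.16 at 48 h, and 0 were called in any comparison with scramble. Of the 5 LNCaP markers 0 were called at 24 h, and KLK2 (-1.07) was called lower with si-A1 at 48 h.

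The genes whose profile lay nearest to the mean of the 10 genes at 24 h were found among 19974 genes measured on all 12 arrays. Each gene's brightest probe was centred on its mean, and the likeness was the root mean square difference from the mean profile of the 10 genes, which stood at 0.54 to 1.14 on the scramble arrays and at -0.60 to -0.28 on the siRNA arrays. The 10 nearest were ZWILCH (0.132), CPAP (0.145), PCNA (0.154), CCNA2 (0.168), H2BC13 (0.168), H2BC4 (0.171), AURKA (0.171), RMI2 (0.172), H2BC9 (0.176) and KIF20A (0.176), where the median gene was at 0.701. Their log2 differences were -1.02 to -1.40 with si-A1 and -1.13 to -1.53 with si-A2, and probes of the near-identical H2B histone genes may read each other's transcripts. Among the 10 genes themselves CENPE (0.188) and CENPM (0.215) lay nearest to the mean profile, and CENPW (0.57), which moved less, and CENPU (0.796), which moved more, lay farthest from it.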

How the data were processed

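RNA from 24 samples was hybridised to 1 one-colour Agilent array each. The authors deposited, for each array, the Feature Extraction output, in which the processed intensity of a spot has its background subtracted and is not normalized between arrays, and in which the median spot and local background intensities are given. The authors also deposited log2 values per time, processed by them with R 3.4.3 and limma 3.34.8 per the labels, which served as an alternative.

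The processed intensity was taken to log2, arrays of 1 time were quantile-normalized together (11 at 48 h), control spots and spots marked as outliers were left out, and spots of a probe were averaged. Probes were named through their RefSeq accession (29033 of 50599 probes at 24 h, 31104 of 58201 at 48 h, GRCh38.p14). The CENPM probes carry other accessions at 48 h and were followed by probe ID, outside the counts. Probes that passed the mean of the 308 negative controls by 3 SDs on 3 arrays or more entered the models, run with limma 3.58.1 under R 4.3.3 (statmod 1.5.0, the data.table package, version 1.17.8), all 3 groups of a time in 1 fit with the slide as a term, and p-values were adjusted by Benjamini-Hochberg over all probes tested. The brightest probe stands for a gene. A bound ("at least N-fold") sets the mean of the brighter group against the lowest signal among probes well above background on the dim arrays, or the dim probe's own where higher. The limma adjusted p beside a bound belongs to the fitted difference and does not test the bound. The model fit, and not the steps before it, was tested on simulated data with independent noise around the probes' means. Intensities limit precision through their height over background and the number of arrays.

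The 10 genes, the gene lists and the rule for named genes (all 10 genes, called list members, and the 10 nearest profiles at 24 h) were chosen with earlier results of these data known. At 48 h the deviations of all 10 same-numbered pairs from their group means correlated at 0.155 to 0.292. Same-slide arrays of other numbers correlated at 0.077 to 0.238. Equal numbers always shared a slide, so the numbers are not shown to pair these samples beyond the slide, and the replicate block served as an alternative. Alternatives covered scaling on the 75th percentile, normexp (on the median signals, offset 50), no background correction, the authors' log2 values, slide and replicate terms, filters, probe rules, a fold threshold, single slides, the dim array and leaving out each array. Results for some marker genes are not reported here, and the LNCaP marker list was shortened by them after its values were known.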

Additional observations from a re-analysis of the deposited data

Results flagged for a closer look

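In 8 of the 48 groups of 4 arrays examined, 1 array of a gene lay far from the other 3, by a gap measure that chance passes in about 1 in 20 groups. At 24 h these were the scramble replicate 1 of CENPA (2.01, log2 intensity), the scramble replicate 3 of CENPN (9.34), the si-A1 replicate 3 of CENPW (5.33), and after si-A2 replicate 4 of CENPF (6.78), replicate 3 of CENPI (4.51) and replicate 1 of CENPU (4.59). At 48 h they were the scramble replicate 3 of CENPF (8.64) and the si-A1 replicate 1 of CENPK (1.54), which was not well above background. The effect of si-A1 differed between the times for CENPF (change of -2.25) and CENPH (-1.94), by the interaction term in limma.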

How the results depend on the processing

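Counts of called genes moved as follows, given without the share of all probes called under each setting. With si-A1 at 24 h (5), only the 2 groups compared gave 2, a filter on interquartile ranges under 0.5 gave 3, and leaving out an array gave 4 to 5. With si-A2 at 24 h (5), leaving out an array gave 5 to 6. With si-A1 at 48 h (9), the dim array included gave 2 (CENPI and CENPA), and leaving out an array 7 to 9 (CENPF could not be fitted without si-A2 replicate 3 or 4). With si-A2 at 48 h (2), normexp gave 7, no background correction 8, the slide as a random block 4, the filter on probes well above background 5, and 0 came from the replicate block, only the groups compared, the interquartile range filter, the dim array included, and each array left out (0 to 0). Between the siRNAs at 48 h (2), normexp, no slide term and the interquartile range filter gave 1, only the groups compared and the dim array 0, and leaving out an array 0 to 2. For the change with si-A1 (2), the dim array gave 0, the 75th percentile 4, and leaving out an array 1 to 3. Within slide 1 or slide 2 alone, 0 genes were called in each comparison, with at most 2 arrays a group, and where si-A2 had 1 array it was assumed to vary like the others. Fits on single slides or without an array had fewer arrays, and causes of the moved counts were not tested.

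At 24 h pairing by replicate number was not shown over the probes tested (same-number correlations -0.137 to 0.153, 3 of 12 above 0.1). These correlations cannot exclude pairing for single genes. With the replicate block, 5 and 5 genes were called at 24 h, 8, 0 and 2 at 48 h, and 3 for the change with si-A1.

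The TAPIR-2 difference with si-A2 at 48 h was -0.003 with normexp. Without 1 array it ran from -0.498 to -0.249 (si-A1) and -1.199 to -0.664 (si-A2) at 24 h, and from -0.061 to 0.48 and -0.426 to 0.469 at 48 h. Leaving out arrays for TAPIR-2 and for the change was chosen after seeing the data.

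Signs turned in 20 of the values for single genes, none of them called. For CENPW with si-A1 at 24 h they were -0.004 with normexp, -0.178 within slide 2, and -0.047 to 0.109 over the fits without 1 array. Between the siRNAs at 24 h, CENPH was at -0.011 with the 75th percentile, -0.145 within slide 1, and -0.047 to 0.174 without 1 array, CENPU at 0.052 within slide 2, CENPM at -0.19 to 0 without 1 array, and CENPN at -0.464 with the median over its probes. At 48 h CENPN was at -0.292 with that median, CENPK at -0.048 (without si-A2 replicate 4) to 0.795 without 1 array and -0.073 within slide 1, and CENPF at -0.673 with the dim array. The change of CENPM with si-A2 was -1.057 with the dim array.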
